A study of Drosophila melanogaster with 16 samples.

Results

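The sodium pump and the cation chloride cotransporters are described here in P1 neurons, a cluster of fruitless-expressing interneurons of the male Drosophila melanogaster brain that take part in courtship. The genes were taken by FlyBase symbol, and all 6 were found among the 17559 genes counted. They were the pump subunits Atpalpha, nrv1, nrv2 and nrv3 and the cotransporters kcc and Ncc69. The males carried UAS>stop>GFP/+; fruFLP/NP2631-Gal4, so that the NP2631-Gal4 driver and a recombinase made from fru together marked the cells, and both groups shared this genotype. Marked cells were drawn by patch pipette from live males. The labels give their age as 3 to 6 days and their time in isolation as 4 to 6 days, which cannot both hold for the youngest. The 4 naive libraries came from males that stayed virgin, and the 4 mated libraries from males paired with a female and harvested soon afterwards. The cluster holds 12 cells per the labels. The design text speaks of 4 sets of naive and mated males but does not say which libraries form a set, nor how many cells or males went into each, so p-values measure the spread between these libraries, which may in part be technical.

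The Na+/K+-ATPase moves sodium out of the cell and potassium into it, and so keeps up the gradients that action potentials run down. Its alpha subunit carries out the transport, and its beta subunit is needed for the pump to reach the membrane. In Drosophila the beta subunits are made from the nervana genes, of which nrv3 is known for neurons and nrv2 for glia and for septate junctions. K-Cl cotransporters use the potassium gradient to carry chloride out, whereas Na-K-2Cl cotransporters use the sodium gradient to carry it in. The balance between them helps to set whether GABA-gated chloride channels hyperpolarise a neuron.

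On the dm6 (BDGP6) assembly Atpalpha, the catalytic subunit, lies at 3R 20948714-20976239 on the plus strand (FBgn0002921). The neuronal beta subunit nrv3 lies at 2L 21380000-21393319 on the plus strand (FBgn0032946). The other beta genes are neighbours on the minus strand of 2L, nrv1 at 6778555-6786861 (FBgn0015776) and nrv2 at 6789770-6798862 (FBgn0015777), with 2908 bp between them. The K-Cl cotransporter gene kcc lies at 2R 23907654-23925066 on the plus strand (FBgn0261794), and the Na-K-2Cl cotransporter gene Ncc69 at 3L 12368646-12391444 on the minus strand (FBgn0036279). All 6 are protein-coding. Exons of kcc share 158 of their 4946 bases with the antisense RNA asRNA:CR44806, and the use of strand in counting is not given in the sources used here. The exons of the other members overlap no other annotated gene. Counts are per gene, so the 6 annotated transcripts of nrv2 or the 11 of Atpalpha cannot be told apart.

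Libraries held 6897560 to 13651313 counts, mated library 3 being the deepest. Levels are in CPM, counts relative to the library size after scaling by TMM, a method that sets libraries on a common scale from most of their genes. Levels of the members are compared with each other only after division by the length of their exons in kb. Places and highest levels given by CPM are not scaled for length. In these libraries the selecting gene fru stood at 776 ± 338 CPM in naive libraries and 286 ± 207 CPM in mated ones, and dsx at 99.9 ± 56.6 and 79.2 ± 32.4 CPM (SD, n = 4). The range of fru was 345 to 1149 CPM in naive and 51.1 to 545 CPM in mated libraries, mated library 2 being the lowest. The summed level of the 5 neuron markers elav, nSyb, Syt1, brp and fne was 12222 to 15805 CPM in naive libraries and 7696 to 12632 CPM in mated ones.

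The sodium pump transcripts came almost entirely from Atpalpha and nrv3. On the length-scaled level nrv3 came first, at 1943 ± 606 CPM per kb, and Atpalpha next, at 1208 ± 340 CPM per kb (SD, n = 8). nrv3 was the higher of the pair in 8 of 8 libraries, although the ranges of the levels overlapped. kcc, whose range lay wholly below that of Atpalpha, followed at 113 ± 25.2 CPM per kb and nrv2 at 77.7 ± 54.6 CPM per kb. Over all libraries the ranges of these neighbours overlapped, kcc being the higher in 5 of 8. In naive libraries kcc lay wholly above nrv2, at 98.2 to 159 against 16.9 to 73.2 CPM per kb. In mated libraries kcc stood at 75.2 to 119 and nrv2 at 37.0 to 150 CPM per kb. There kcc was the higher only in mated library 3. nrv1 stood at 8.43 ± 11.4 CPM per kb and Ncc69 at 0.485 ± 0.956 CPM per kb, each below its upper neighbour in 8 of 8 libraries, with ranges that overlapped.

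**Figure D1:**
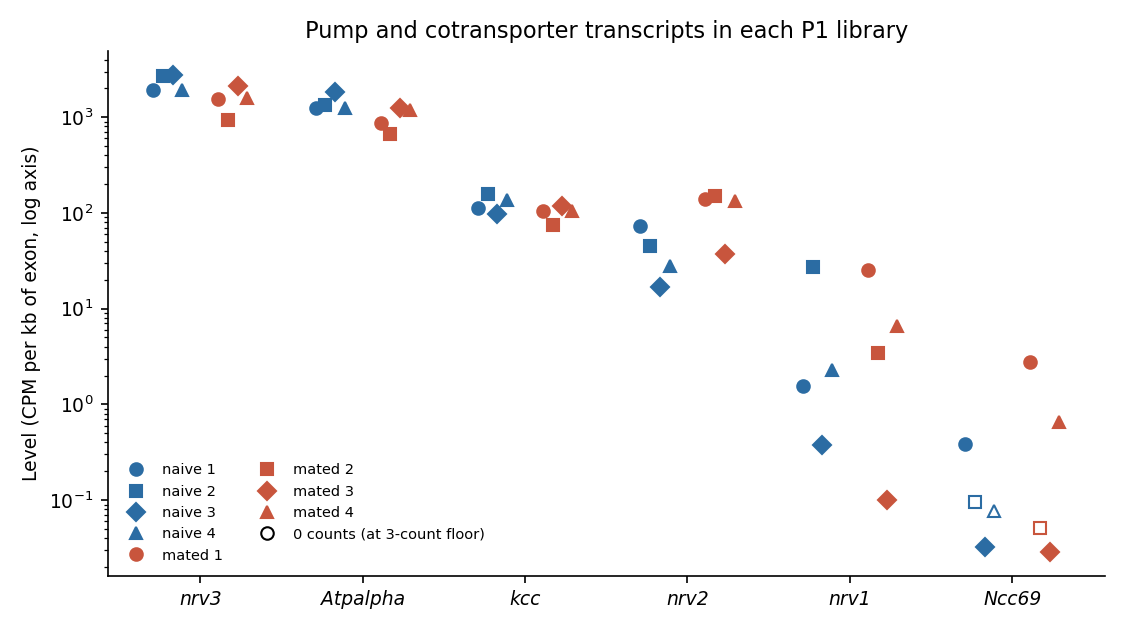
Level of each gene in every library, in CPM per kb of exon on a log axis. Blue symbols are naive and red symbols mated libraries, one shape per library number, and open symbols are libraries with 0 counts drawn at the floor of 3 counts. nrv3 and Atpalpha lie above all other members in every library, and Ncc69 lies lowest.

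For Atpalpha, naive libraries 1 to 4 gave 8339, 8969, 12211 and 8390 CPM. Mated libraries 1 to 4 gave 5805, 4510, 8406 and 7902 CPM. Naive library 3 was the highest and mated libraries 1 and 2 were the lowest, and the groups overlapped only because mated library 3 exceeded naive libraries 1 and 4. By CPM, Atpalpha ranked between place 7 and place 9 of all genes in each of the 8 libraries. Per kb it ran from place 10 to place 21 in naive libraries and from place 22 to place 122 in mated ones.

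For nrv3 the naive values were 9109, 12870, 13285 and 9240 CPM. The mated values were 7423, 4500, 10073 and 7651 CPM. Mated library 2 was the lowest for nrv3 as it was for Atpalpha, and again only mated library 3 reached into the naive range. nrv3 ranked between place 6 and place 9 by CPM in all 8 libraries. Per kb its place ran from 3 to 8 in naive libraries and from 8 to 73 in mated ones.

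The other beta genes were far lower and more uneven. For nrv2 the naive values were 261, 160, 60.3 and 101 CPM. The mated values were 495, 534, 132 and 474 CPM. Mated libraries 1, 2 and 4 lay above every naive library, and mated library 3 fell inside the naive range. nrv1 had 31, 375, 5 and 39 counts in naive libraries 1 to 4, or 3.38, 60.4, 0.824 and 5.04 CPM. In mated libraries 1 to 4 it had 484, 87, 3 and 111 counts, or 56.0, 7.56, 0.218 and 14.6 CPM. Each group thus had a single library that held most of its nrv1 reads, naive library 2 and mated library 1, and mated library 3 was at the floor of 3 counts.

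nrv3 was set against the other beta subunits within each library, a ratio that library scaling cannot move. Per kb of exon, nrv3 supplied 96.2%, 97.4%, 99.4% and 98.4% of the beta subunit counts in naive libraries 1 to 4. In mated libraries 1 to 4 its share was 90.5%, 86.0%, 98.3% and 92.0%. The share of nrv2 was 0.603% to 3.69% in naive and 1.72% to 13.66% in mated libraries, and that of nrv1 never exceeded 1.48%. Over the 8 libraries the log2 ratio of nrv3 to the sum of nrv1 and nrv2 was 4.80 ± 1.6 (SD, n = 8), a 27.9-fold excess as a geometric mean. It was above 0 in 8 of 8 libraries (exact sign-flip permutation test, two-sided, p = 0.00781, adjusted over 3 ratios p = 0.00781, the smallest this test can give).

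The alpha subunit was set against the sum of the beta subunits in the same way. The log2 ratio of Atpalpha to nrv1, nrv2 and nrv3 together was -0.75 ± 0.18 (SD, n = 8), so there was 0.595 of an alpha read per beta read at equal length. It was below 0 in 8 of 8 libraries (exact sign-flip permutation test, two-sided, adjusted over 3 ratios p = 0.00781). The size of this ratio rested on the length used: with the longest coding length in place of the exon union it was -1.97, and with the longest transcript -0.54. Among the ratios between members it varied least, running from -1.05 in naive library 2 to -0.56 in mated library 4.

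**Figure D2:**
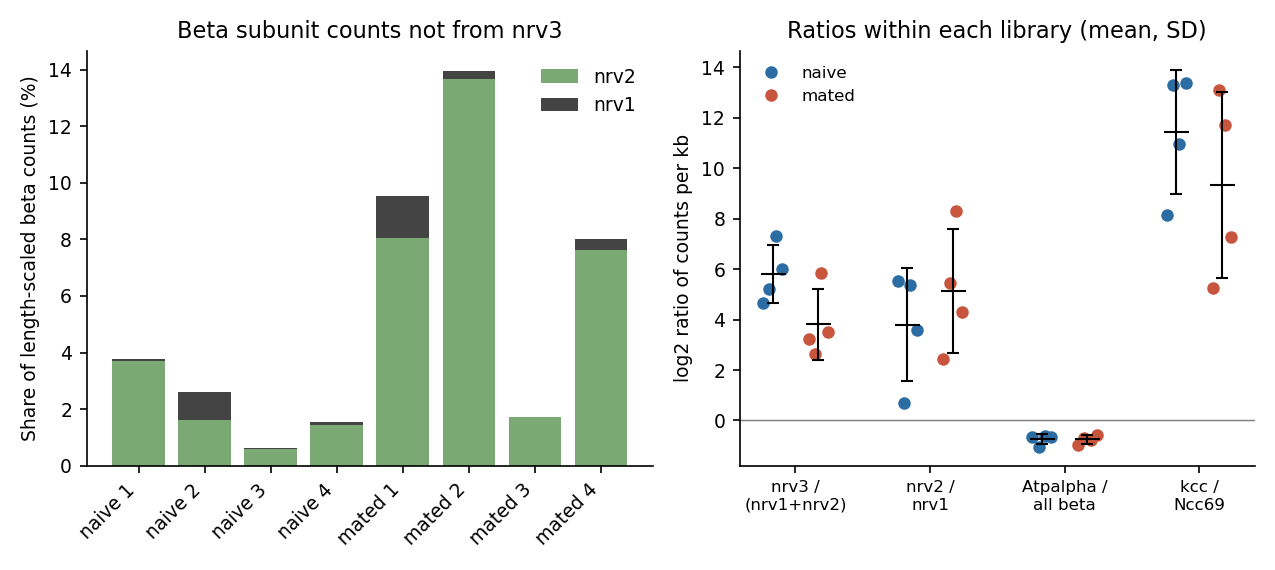
Left, share of length-scaled beta subunit counts that came from nrv2 (green) and nrv1 (grey) in each library, in percent, nrv3 making up the rest. Right, log2 ratios of counts per kb in naive (blue) and mated (red) libraries with mean and SD (n = 4), where the alpha to beta ratio is nearly the same in both groups and the other ratios spread widely.

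The cotransporters stood far apart, with the K-Cl cotransporter kcc read in every library and the Na-K-2Cl cotransporter Ncc69 close to absent in most. For kcc the naive values were 553, 788, 486 and 667 CPM. The mated values were 523, 372, 590 and 512 CPM. kcc was the steadiest member across libraries, with a coefficient of variation of 22.2%, and its groups overlapped. Ncc69 had 18, 0, 1 and 0 counts in naive libraries 1 to 4 and 121, 0, 2 and 25 counts in mated libraries 1 to 4. A count of 0 allowed up to 0.483 CPM in naive library 2, 0.388 CPM in naive library 4 and 0.261 CPM in mated library 2, and these limits cover counting error only.

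Per kb of exon, kcc was at least 1664-fold, 1754-fold and 1456-fold higher than Ncc69 in the 3 libraries without an Ncc69 read (naive 2, naive 4 and mated 2), taken against 3 counts per library. With 1 count in naive library 3 the ratio was 3007, with an exact 95% Poisson interval of 540 to 118800. With 2 counts in mated library 3 it was 4134, with an interval of 1144 to 34140. These bounds and intervals cover counting error only, and amplified reads are not independent molecules. The ratio was 287 in naive library 1, 159 in mated library 4 and 38.1 in mated library 1. With 0.5 count added to each gene, the log2 ratio was 10.38 ± 3.11 (SD, n = 8) and was above 0 in 8 of 8 libraries (exact sign-flip permutation test, two-sided, adjusted over 3 ratios p = 0.00781).

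Another question was whether these transcripts differ between naive and mated males. Ncc69 was too low for the test, and the other 5 members were tested. None of the 5 passed at an adjusted p under 0.05 with edgeR's quasi-likelihood test, where 0.381% of all 7090 tested genes passed, 0.339% as higher and 0.0423% as lower in mated males. At an unadjusted p under 0.05 there were 3 of the 5, nrv2 with a higher and nrv3 and Atpalpha with a lower mean, where 10.6% of all tested genes lay, 5.54% higher and 5.02% lower. With DESeq2, an alternative that called 3.33% of genes, 2.58% higher and 0.742% lower, nrv2 alone passed. The groups overlapped in all 5, while they did not overlap in 7.66% of all tested genes. In counts simulated on these libraries, the edgeR test recovered 0% of genes changed by a log2 size of 1 and 28% of those changed by 2, so the absence of a call says little about changes of the sizes seen here. The changed genes were drawn at random from all tested genes, so these rates need not hold for a given member. The SE was 0.23 for Atpalpha, 0.25 for nrv3 and 0.24 for kcc.

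nrv2, the glial and septate junction beta subunit, averaged 145 ± 87.2 CPM in naive libraries and 409 ± 186 CPM in mated ones (SD, n = 4). Its log2 fold change was 1.49 ± 0.47 (SE, adjusted p by edgeR = 0.22), and the mated library was the higher in 14 of 16 pairs of a mated with a naive library. DESeq2 gave 1.5 ± 0.46 and called it (adjusted p = 0.0354). The adjusted p over all alternatives with a model across genes and over the marker ratio below ran from 0.0354 to 0.702, the highest from the model with the title number as a term. Without mated library 3 the log2 fold change was 1.80 (edgeR adjusted p = 0.07). Leaving out each library in turn gave 1.22 to 1.92 (edgeR adjusted p = 0.07 to 0.47).

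nrv3 averaged 11126 ± 2260 CPM in naive libraries and 7412 ± 2281 CPM in mated ones, which as a log2 fold change was -0.59 ± 0.25 (SE, adjusted p by edgeR = 0.41). Atpalpha averaged 9477 ± 1845 and 6656 ± 1821 CPM, or -0.51 ± 0.23 as a log2 fold change (SE, adjusted p by edgeR = 0.464). In both genes the mated library was the higher in only 2 of 16 pairs. Without mated library 2 the fold changes were -0.41 for nrv3 and -0.36 for Atpalpha. kcc averaged 623 ± 133 and 499 ± 91.5 CPM, or -0.32 ± 0.24 as a log2 fold change (SE, adjusted p by edgeR = 0.729).

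nrv1 averaged 17.4 ± 28.7 CPM in naive libraries and 19.6 ± 25.0 CPM in mated ones, and its log2 fold change of 0.17 ± 1.42 (SE, adjusted p by edgeR = 0.994) had no settled direction. It was 2.65 without naive library 2 and -1.22 without mated library 1. Ncc69, tested only when no filter was applied, had a log2 fold change of 2.94 ± 2.39 (SE, adjusted p by edgeR = 0.612), and most of its mated counts were the 121 of mated library 1.

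**Figure D3:**
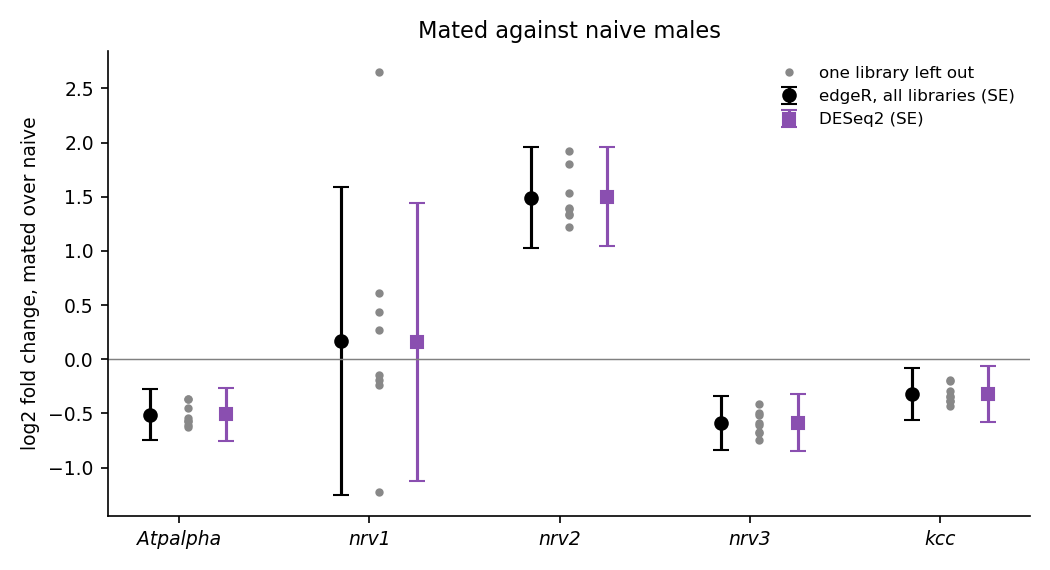
Log2 fold change of mated over naive males for the 5 tested members, with edgeR (black circles, SE), with each library left out in turn (grey points) and with DESeq2 (purple squares, SE). nrv2 lies above 0 and nrv3, Atpalpha and kcc lie below 0 in all of these fits, and nrv1 lies on both sides.

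The sample titles also hold a number that is not explained in the labels. It was largely confounded with group, since number 1119 alone held both, with 1 naive and 2 mated libraries. Within number 1119 the mated minus naive difference in log2 level was 2.08 for nrv2, -0.62 for nrv3 and -0.81 for Atpalpha. For kcc it was 0.19 within that number, against -0.32 over all libraries, so the lower mean of kcc in mated males did not hold there. Under library size alone the median over all tested genes was 0.17 in place of -0.01. Relative to that median the fold changes were 1.49 for nrv2, -0.58 for nrv3, -0.50 for Atpalpha and -0.32 for kcc.

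The ratios within libraries were then compared between groups, in 4 comparisons. The log2 ratio of nrv3 to the other beta subunits was 5.80 ± 1.15 in naive libraries and 3.8 ± 1.40 in mated ones (SD, n = 4), the mated mean being lower by a log2 difference of -2.0, which was within the spread (exact permutation test over 70 assignments, two-sided, p = 0.0857, adjusted over 4 ratios p = 0.343). Without mated library 3 the difference was -2.67 and the groups did not overlap (exact permutation test, p = 0.0286, adjusted p = 0.114). Leaving out any other single library gave differences from -2.37 to -1.49 (exact permutation test, p = 0.0857 to 0.171). The smallest p for 4 against 4 libraries is 0.0286, so a ratio alone at that value could not reach 0.05 after adjustment over 4. The log2 ratio of Atpalpha to all beta subunits was -0.74 ± 0.20 in naive libraries and -0.75 ± 0.18 in mated ones, and the difference of -0.0097 was a small part of either SD (exact permutation test, two-sided, p = 0.943).

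The remaining ratios rested on the 2 least abundant members. For nrv2 to nrv1 the log2 ratio was 3.8 ± 2.25 in naive libraries and 5.13 ± 2.46 in mated ones (exact permutation test, two-sided, p = 0.457, adjusted p = 0.61). That difference of 1.32 was 0.29 without naive library 2, 0.26 without mated library 3 and 2.22 without mated library 1. The ratio of kcc to Ncc69 was 11.44 ± 2.47 and 9.33 ± 3.68 (exact permutation test, two-sided, p = 0.314, adjusted p = 0.61). Here the difference of -2.11 was -0.75 when mated library 1 was left out, and leaving out naive library 1 or mated library 2 gave -3.21 or -3.36. In the 3 libraries without an Ncc69 read the value of this ratio is set by the 0.5 count added, so its size there is not a measurement.

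Markers of neurons and of other cells were read beside these members. All 5 neuron markers were lower in mated libraries, with a median log2 fold change of -0.50 and 0 past the adjusted threshold. At an unadjusted p under 0.05 with edgeR there were 3 of them, elav, Syt1 and nSyb, where 5.02% of all tested genes were lower. The groups did not overlap in 2, elav and nSyb. All 7 tested glia markers were higher, with a median of 2.75 (1.74 without mated library 2) and 0 past the adjusted threshold, against a median of -0.01 over all genes. Leaving out naive library 2, naive library 3 or mated library 4 gave 6 higher and 1 lower. At an unadjusted p under 0.05 there were 4 of these 7, where 5.54% of all tested genes were higher. The summed level of the 9 glia markers was 97.0, 46.6, 75.5 and 89.6 CPM in naive libraries 1 to 4 and 463, 698, 189 and 301 CPM in mated libraries 1 to 4. The mated libraries were all higher than the naive ones, and mated library 3, the lowest of them, was also the mated library with the least nrv2. Of the defining glia markers, repo was at 0 counts in naive library 3 and mated library 2, and alrm at 0 in naive libraries 1, 2 and 4. The group means of repo differed by far less than their spread (4.13 ± 4.74 CPM naive, 4.92 ± 4.04 CPM mated, SD, n = 4). Although counted as higher, repo thus had no settled direction (log2 fold change 0.25 ± 1.77 SE). Neither alrm nor moody was tested. Mated library 2, the highest in nrv2, had no repo read and was also the highest library in Gs2, Eaat1, Gat, wrapper, Tret1-1 and CG6126. Gs2, Eaat1 and Tret1-1, an enzyme of glutamine synthesis and transporters of glutamate and of trehalose, were the glia markers whose groups did not overlap, as was so in 7.66% of all tested genes, with Gs2 at 17.4 ± 10.8 and 117 ± 54.4 CPM. In bulk samples of this kind, fewer cells of a type and less RNA per cell cannot be told apart.

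Atpalpha, nrv3, kcc and nrv2 were also read relative to a marker sum, in 5 comparisons added after the marker levels were seen. The log2 ratio of nrv3 to the summed neuron markers was -0.37 ± 0.13 in naive libraries and -0.51 ± 0.29 in mated ones (exact permutation test, p = 0.4, adjusted p = 0.643). For Atpalpha it was -0.60 ± 0.20 and -0.65 ± 0.10 (exact permutation test, p = 0.686, adjusted p = 0.686), and for kcc -4.53 ± 0.33 and -4.36 ± 0.25 (exact permutation test, p = 0.514, adjusted p = 0.643). The differences of -0.14 for nrv3 and -0.05 for Atpalpha were smaller than their fold changes on the CPM scale. For kcc the difference was 0.17, in the opposite direction to its fold change. Of the mean neuron marker sum of 12298 CPM, fne alone made up 6463 CPM. The log2 fold change of fne, -0.31, was the smallest of the 5, while elav and Syt1 each had -0.70. Ratios to single markers were not taken. For nrv2 relative to the summed glia markers the log2 ratio was 0.76 ± 1.0 in naive libraries and -0.04 ± 0.53 in mated ones, a difference of -0.80 in the opposite direction to its fold change (exact permutation test, p = 0.2, adjusted p = 0.5). Against the neuron markers nrv2 differed by 1.99 (exact permutation test, p = 0.0571, adjusted p = 0.286). The part of glial RNA in the level of nrv2 was not tested.

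**Figure D4:**
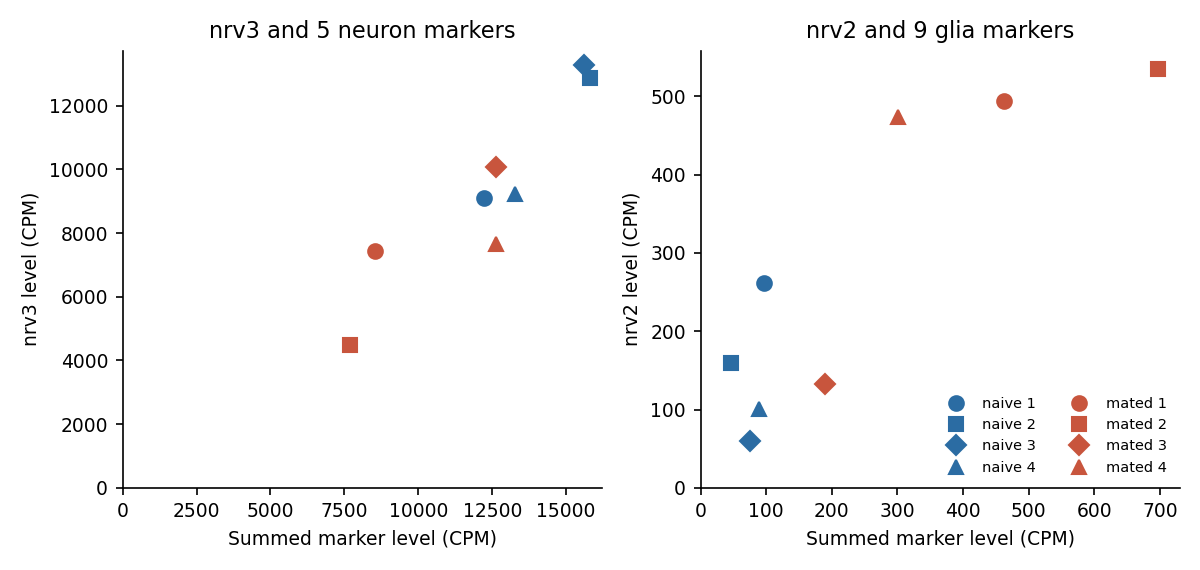
Left, level of nrv3 against the summed level of 5 neuron markers, and right, level of nrv2 against the summed level of 9 glia markers, both in CPM, one symbol per library (blue naive, red mated). The libraries with the highest nrv3 have the highest neuron marker sums, and mated libraries 1, 2 and 4 are high in both nrv2 and the glia sum.

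Summed markers of further cell types also stood at other levels in the groups, and their part in these results was not tested. The 6 fat body markers summed to 243 to 607 CPM in naive libraries and 1231 to 2954 CPM in mated ones, and all 6 were higher in mated libraries, with 1 past the adjusted threshold, which 0.339% of all tested genes passed as higher. Of 5 tested photoreceptor markers 4 were higher, with 1 past that same threshold, and norpA, the only lower one, made up most of the sum of 1058 to 1690 CPM in naive libraries and 1292 to 1860 CPM in mated ones. Of 5 tested muscle markers 4 were higher, the sum being 17.1 to 40.0 CPM in naive libraries and 28.5 to 145 CPM in mated ones. Both tested hemocyte markers were higher, with sums of 0.165 to 6.47 CPM in naive libraries and 13.5 to 30.6 CPM in mated ones. None of the muscle or hemocyte markers passed the threshold.

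The profile of each member over the 8 libraries was compared with those of the 5434 other tested genes with a mean of at least 10 CPM, as the root mean square difference of log2 levels centred on each gene's mean. nrv3 and Atpalpha lay close to each other, at 0.18 log2 units, against 0.47 and 0.40 for their own spread around their means. Atpalpha was number 8 among the genes nearest to nrv3, and nrv3 was number 35 among those nearest to Atpalpha. nrv2, by contrast, was number 3944 for nrv3 and number 3890 for Atpalpha. The 3 genes nearest to nrv3 were CG5934, ATP8A and zda, at 0.14 to 0.15 log2 units. Those nearest to Atpalpha were ps, Smr and FBgn0262742, at 0.10 to 0.12.

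The gene nearest to nrv2 was Inx2, an innexin of gap junctions, at 0.31 log2 units against an own spread of 1.1 for nrv2, followed by Rab3GAP1 and CG12099 at 0.35 and 0.36. Inx2 had a mean of 42.8 CPM and a log2 fold change of 1.6 (edgeR adjusted p = 0.352). Nearest to kcc were Rab3-GEF, CG17816 and B4, at 0.13 to 0.14 log2 units against an own spread of 0.30. For nrv1 the nearest genes, FBgn0033059, Clbn and GstD9, were at 0.90 to 1.14 log2 units against an own spread of 2.16. These likenesses are descriptions over 8 libraries that share their scaling.

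None of the other sodium pump genes came near the levels of Atpalpha or nrv3. JYalpha, a further alpha subunit gene, had at most 19 counts in a library, and CG11703, a predicted beta subunit, at most 3. CG33310, another predicted beta subunit, was the only tested gene of these 6 and had 62, 23, 4 and 124 counts in naive and 1, 0, 0 and 16 in mated libraries (log2 fold change -3.61 ± 1.91 SE, adjusted p by edgeR = 0.552).

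Of the other cation chloride cotransporters, NKCC, a second Na-K-2Cl type gene, had 0 to 2 counts in 6 of 8 libraries and 49 and 20 in mated libraries 3 and 4. CG10413 was read in every library, with 53.5 ± 20.6 CPM in naive libraries and 51.9 ± 29.4 CPM in mated ones. CG12773 stood at 23.3 ± 24.0 and 20.3 ± 17.8 CPM (SD, n = 4). The kinases that act on these cotransporters were all present. Wnk, the upstream kinase, stood at 39.2 ± 18.6 CPM in naive libraries and 68.3 ± 44.7 CPM in mated ones. fray, the kinase that Wnk activates, stood at 58.2 ± 14.1 and 76.4 ± 40.4 CPM, and Mo25, the partner protein of fray, at 95.4 ± 9.52 and 115.3 ± 48.0 CPM. None of these 5 tested genes had an unadjusted p under 0.05 with edgeR, and none passed with adjustment.

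Among 16 genes of chloride channels and anion exchangers, 10 were tested, 2 with a higher and 8 with a lower mean in mated libraries, and a median log2 fold change of -0.50. Scaling by library size alone made this 3 higher and 7 lower with a median of -0.32. None passed the adjusted threshold, and 2 had a lower mean at an unadjusted p under 0.05, where 5.02% of all tested genes did. Rdl, the GABA-gated chloride channel, had the highest level of the list, 4311 ± 1136 CPM in naive libraries and 2085 ± 776 CPM in mated ones (log2 fold change -1.05 ± 0.28 SE, adjusted p by edgeR = 0.151). The lowest naive value of Rdl was 3481 CPM and the highest mated value 2808 CPM. Of the 10 tested genes 1 was thus without overlap, as were 7.66% of all tested genes. GluClalpha, a glutamate-gated chloride channel, had 1602 ± 298 and 987 ± 421 CPM (log2 fold change -0.70 ± 0.29 SE, adjusted p by edgeR = 0.4). Ae2, an anion exchanger, stood at 531 ± 156 and 461 ± 152 CPM.

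**Figure D5:**
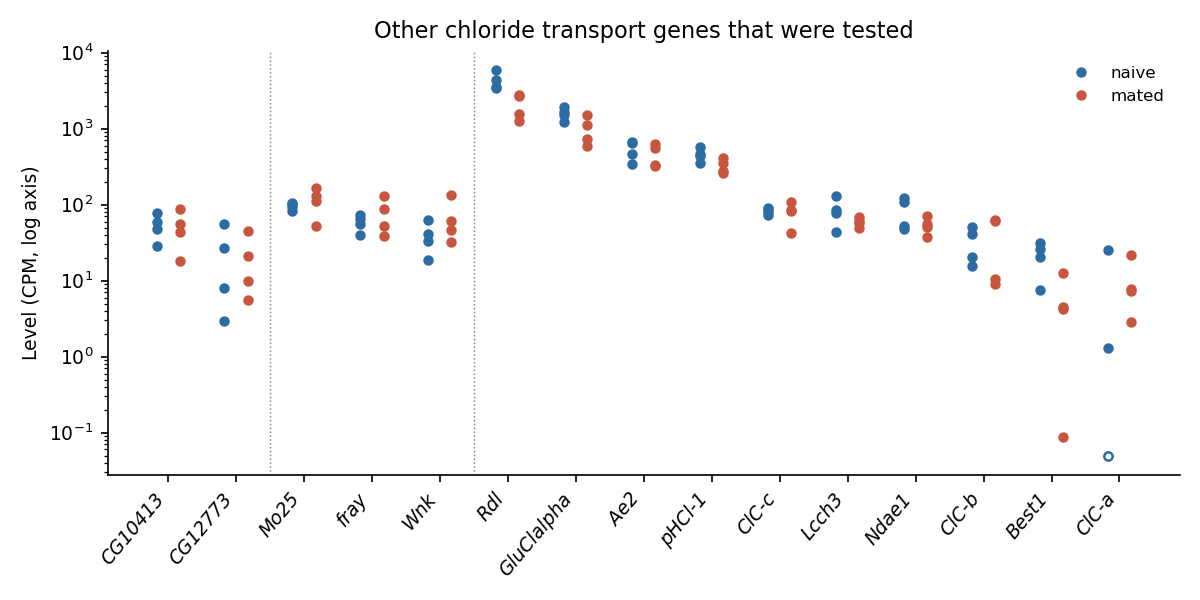
Levels in CPM on a log axis of the tested cation chloride cotransporters outside the 6 members, the kinases that act on them, and chloride channels and anion exchangers, left to right between dotted lines, for 4 naive (blue) and 4 mated (red) libraries. A library with 0 counts is drawn open at the foot of the axis. Rdl is the gene of this plot whose groups do not overlap, as is so in 7.66% of all tested genes.

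Of 9 calcium pumps and cation exchangers, which use ATP or the gradients set by the sodium pump, all 9 were tested and none passed the adjusted threshold. Their median log2 fold change was -0.01, or 0.19 under library size alone and 0.10 without mated library 2. Nckx30C, a potassium-dependent sodium-calcium exchanger, was the highest at 2251 ± 420 CPM in naive libraries and 1544 ± 591 CPM in mated ones. SPoCk, a calcium pump of the secretory pathway, stood at 723 ± 64.6 and 665 ± 234 CPM, and the sodium-calcium exchanger Calx at 370 ± 68.1 and 400 ± 139 CPM. PMCA, the calcium pump of the plasma membrane, shares 40.5% of its exon bases with Rnf11 on the other strand, so its counts are uncertain. It averaged 475 ± 160 and 271 ± 97.5 CPM (log2 fold change -0.81 ± 0.33 SE, adjusted p by edgeR = 0.38). zyd, an exchanger known from glia, averaged 13.8 ± 16.8 and 77.7 ± 48.0 CPM (log2 fold change 2.48 ± 0.93 SE, adjusted p by edgeR = 0.318), so that its means lay in the same direction as those of nrv2.

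The septate junction, where nrv2 is known to act in epithelia, was represented by 10 genes, of which 9 were tested, 2 with a higher and 7 with a lower mean in mated libraries. None passed the adjusted threshold, and the median log2 fold change was -0.19, or -0.03 under library size alone. Without mated library 2 there were 5 higher and 4 lower with a median of 0.04, and without mated library 4 also 5 and 4 with a median of 0.07. cora, a cytoskeletal linker of the junction, had 288 ± 51.5 CPM in naive libraries and 152 ± 48.4 CPM in mated ones without overlap (log2 fold change -0.92 ± 0.30 SE, adjusted p by edgeR = 0.232). It was the 1 gene of the 9 tested without overlap, where 7.66% of all tested genes had none. The adhesion genes Nrg and Nrx-IV stood at 336 ± 58.3 and 136 ± 46.9 CPM in naive and at 239 ± 73.7 and 135 ± 25.3 CPM in mated libraries.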

How the data were processed

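Polyadenylated RNA was made into cDNA with a SMARTer ultra-low-input kit, amplified for 15 rounds, sheared to 200 bp and amplified for 12 more, per the labels' protocols. The authors deposited raw read counts per gene for runs A and B of each library and their sum; cutadapt, HISAT2 2.2.1 and featureCounts 1.6.2 and the builds dm6 and BDGP6 are named in the submitters' processing notes. The annotation release used for counting is not given in the sources used here. Amplified reads without molecular identifiers are not independent molecules.

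Runs were summed, so each of the 8 libraries was 1 replicate. Columns of other samples numbered 0. edgeR 4.0.16 (R 4.3.3) tested mated against naive libraries with filterByExpr, TMM scaling, robust glmQLFit and glmQLFTest, with Benjamini-Hochberg adjustment over 7090 genes. DESeq2 1.42.0, other scalings and filters, single runs, the title number as a term and each library left out were alternatives. SE is the log2 fold change divided by the square root of F. Exon lengths are from Ensembl release 115 (BDGP6). Ratios were taken within libraries with 0.5 count added. Exact permutation tests were two-sided. Profiles used log2 of CPM plus 0.5. The code was tested on simulated counts with 200 changed genes. Python 3.11.15, numpy 2.4.6 and scipy 1.17.1 were used.

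The members and lists were chosen with earlier results of these data known. Beside the members, named genes are, in each list, the 3 with the highest mean level and up to 3 with the smallest unadjusted p under 0.05, and the 3 nearest genes to each tested member. Not every marker so chosen is named. Markers named outside this rule are brp for neurons and repo, alrm, moody, wrapper and CG6126 for glia. CG3701 was matched through synonyms to CG45062 and CG45063, CG40625 was the same gene as JYalpha, and para had no match.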

Additional observations from a re-analysis of the deposited data

Results flagged for a closer look

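In 20 sets of 4 libraries, made up of the levels of the 6 members and the 4 ratios in each group, 5 had a library standing far from the other 3, by the gap to its nearest neighbour over the range of the set (Dixon's test at its 95% critical value). Chance alone gives about 1 in 20 only where values are normally distributed, which these levels need not be, and the sets share libraries and genes. Atpalpha in naive library 3 was 12211 CPM, with the other naive libraries at 8339 to 8969 CPM. nrv1 in naive library 2 was 60.4 CPM, with the others at 0.824 to 5.04 CPM. nrv2 in mated library 3 was 132 CPM, with the others at 474 to 534 CPM. Ncc69 in naive library 1 was 1.96 CPM, with the others at 0 to 0.165 CPM. The log2 ratio of Atpalpha to all beta subunits in naive library 2 was -1.05, with the others at -0.67 to -0.62.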

How the results depend on the processing

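No member but nrv2 crossed the adjusted threshold under any alternative, and nrv2 did so with DESeq2 alone (log2 fold change 1.5). The 3 ratios of levels kept their direction and call under every alternative run, and the 4 differences of ratios between groups passed under none. kcc changed direction with the title number as a term (0.20) and when read relative to the summed neuron markers (0.17). nrv2 did so relative to the summed glia markers (-0.80), and the alpha to beta difference without length scaling (0.014) and against nrv3 alone (0.086). Within number 1119 the alpha to beta difference was -0.26. Leaving out 1 library gave 6 to 53 genes past the threshold against 27 in all 8 libraries (6, 16 and 53 without mated 1, 2 and 3, 11, 12, 41 and 7 without naive 1, 2, 3 and 4), fold changes of -1.22 to 2.65 for nrv1, alpha to beta differences of -0.11 to 0.067, kcc to Ncc69 differences of -3.36 to -0.75, nrv2 to nrv1 differences of 0.26 to 2.22, and list medians of 1.74 to 2.93 for glia, 2.73 to 3.97 for photoreceptor and 3.10 to 6.47 for hemocyte markers. Genes past the threshold numbered 46 under library size alone, 56 with no filter, 64 with at least 10 counts in every library, 47 in run B alone, 233 with DESeq2 and 0 with the title number as a term (edgeR, 452 at an unadjusted p under 0.05). The causes were not tested. Without an added count, kcc to Ncc69 could not be computed, as 3 libraries had 0 Ncc69 counts; with Ncc69 set to 3 counts where at or under it, the log2 ratio was 9.26. nrv1 was left out by the filter of 10 counts in every library. No paired analysis was possible because the design text speaks of 4 sets but does not say which libraries form a set.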
